A study of Mus musculus with 87 samples.

Results

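The 9 genes described here, Pck1, G6pc, Fbp1, Ppargc1a, Pklr, Hk2, Slc2a1, Slc2a2 and Gys2, were taken by symbol from the deposited table of 37991 mouse genes, in which each symbol had exactly 1 row. Poly(A)-selected RNA of single livers was sequenced from male C57BL/6 mice, 12 to 14 weeks old at surgery, after 70% partial hepatectomy (PH, groups X), after sham surgery (groups S, in which the abdomen was opened and no liver was removed) or without an operation (groups C). The mice had food in the dark period only, from ZT12 to ZT24 (ZT0 is the start of light), and were operated on at ZT2. The number after the letter is the time in hours after surgery (in weeks where W follows), and 80 libraries of 87 labelled samples were analysed. They came from 9 C0 livers (ZT2), 3 C4 (ZT6), 2 C4W, 6 S1 (ZT3), 5 S4 (ZT6), 3 S10 (ZT12), 3 S20 (ZT22), 3 S48 (ZT2), 6 X1 (ZT3), 3 X4 (ZT6), 6 X10 (ZT12), 6 X20 (ZT22), 3 X28 (ZT6), 6 X36 (ZT14), 3 X44 (ZT22), 5 X48 (ZT2), 3 X72 (ZT2), 3 X1W and 2 X4W. All groups were of the same strain and sex, and the labels name no genetic change. X28, X36, X44, X72, X1W and X4W had no sham group, and no group without PH was collected at ZT14. By the study's own account the animals were handled in 3 separate periods, and 3 of the C0 livers belong to each. S48, X28, X44, X48, X72 and X1W came from the first period, S10, S20, C4W and X4W from the second, C4 from the third, and S1, S4, X1, X4, X10, X20 and X36 from both of the first and the second, although only 3 of the X4 livers were analysed. The labels do not tie replicate numbers to periods, so for a group of a single period, the period and the operation cannot be told apart against the pooled C0 livers.

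The liver keeps blood glucose steady by making glucose during fasting and by storing or breaking it down after a meal. In gluconeogenesis, Pck1 (phosphoenolpyruvate carboxykinase) makes phosphoenolpyruvate from oxaloacetate, Fbp1 (fructose-1,6-bisphosphatase) opposes phosphofructokinase, and G6pc (the catalytic subunit of glucose-6-phosphatase) releases free glucose, while Ppargc1a encodes PGC-1alpha, a coactivator known for raising transcription of gluconeogenic genes in the fasted liver. In the opposite direction, Pklr (liver pyruvate kinase) catalyses the last step of glycolysis, and Hk2 is a hexokinase best known from muscle and fat. Gys2 is the glycogen synthase of the liver. Slc2a1 (GLUT1) and Slc2a2 (GLUT2) carry glucose across the plasma membrane.

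Of the 9 genes, 8 had a promoter in the RefSeq set used here (GRCm38.p6, 250 bases before to 50 bases after a start of transcription), and Gys2 is named only. The promoters of Pck1 and G6pc, which carry an early and the final step of glucose production, and of Pklr, which works in the opposite direction, are shown so that their regulatory letters can be read beside the expression values. They lie at chr2:173152823-173153122 (Pck1), chr11:101367466-101367765 (G6pc) and chr3:89136373-89136672 (Pklr, the downstream of its 2 starts in that set), all on the plus strand. Capitals mark the motif matches given after the sequences.
Pck1: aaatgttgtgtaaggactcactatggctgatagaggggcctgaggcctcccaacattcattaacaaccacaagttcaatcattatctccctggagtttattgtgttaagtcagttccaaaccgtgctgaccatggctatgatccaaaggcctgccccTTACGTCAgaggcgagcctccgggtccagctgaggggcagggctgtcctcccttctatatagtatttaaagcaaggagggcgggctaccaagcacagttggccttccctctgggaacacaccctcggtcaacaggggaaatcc
G6pc: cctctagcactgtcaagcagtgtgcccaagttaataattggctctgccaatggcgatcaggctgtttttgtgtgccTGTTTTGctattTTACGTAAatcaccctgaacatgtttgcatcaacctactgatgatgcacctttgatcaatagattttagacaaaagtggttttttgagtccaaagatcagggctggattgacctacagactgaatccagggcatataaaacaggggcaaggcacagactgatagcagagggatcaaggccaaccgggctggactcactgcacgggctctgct
Pklr: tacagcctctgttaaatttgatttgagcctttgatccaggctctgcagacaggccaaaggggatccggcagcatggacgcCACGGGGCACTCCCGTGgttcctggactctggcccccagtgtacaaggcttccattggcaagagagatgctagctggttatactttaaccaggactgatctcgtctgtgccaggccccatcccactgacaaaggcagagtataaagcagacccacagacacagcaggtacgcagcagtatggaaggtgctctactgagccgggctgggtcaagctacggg
The motifs were chosen with these sequences in view and were searched on both strands of 32851 promoters. A cAMP response element, written as TNACGTNA, matched from −93 to −86 in Pck1 and from −162 to −155 in G6pc, counted from the start of transcription, and 4.49% of all promoters held such a match. TGTTTTG, the core of the insulin response sequence, matched G6pc from −174 to −168 and was in 6.28% of promoters. A carbohydrate response element, written as CANGNG and, after 5 further bases, CNCNTG, matched Pklr from −170 to −154 and was in 0.557% of promoters. The E-box CACGTG was in 7.15% of promoters and in none of those listed for the 9 genes. No 2 matches overlapped, and a match describes letters only, since no binding was measured here.

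Levels are given as log2 RPKM, the log2 of reads scaled to exon length and to the size of the library, so that genes can be compared per length. A gene was called different at an adjusted p below 0.05 (limma, Benjamini-Hochberg over the 15396 genes tested) together with a difference beyond 0.5 on the scale of log2(RPKM + 0.25). Estimated depth lay between 12.2 and 48.8 M reads per library, with a median of 26.7 M. The 8 hepatocyte markers summed to between 27537 and 61763 RPKM in every library, whereas the 5 endothelial markers stayed at or below 17.5 RPKM, the 5 stellate and matrix markers at or below 111 RPKM, and the 5 skeletal muscle markers at or below 0.424 RPKM. C0 replicate 8 held the highest sums of immune markers of all libraries, with 45.9 RPKM over 5 neutrophil markers (0.356 to 4.89 in the other C0 livers) and 79.8 RPKM over 5 macrophage markers (5.62 to 16.9). The C4W livers were closer to each other than any other pair within a group, with 11.1% of genes beyond the 5% limit of counting error against 23.4% or more elsewhere, and were kept as 2 samples. P values set a difference between groups against the spread between livers of a group, estimated for each gene over all 19 groups. In bulk RNA, fewer cells of a type and less RNA per cell cannot be told apart.

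The genes lay far apart in level. Pck1 reached 1178 RPKM on average in X1 and Fbp1 724 RPKM in X10, G6pc, Pklr, Slc2a2 and Gys2 had group means between 13.6 and 559 RPKM, and Slc2a1 and Ppargc1a had group means between 0.411 and 4.93 RPKM. Hk2 was at the foot of the scale, between −7.57 and −1.83 log2 RPKM in all 80 libraries, which stands for 1.00 to 35.9 estimated reads per library. It passed the detection level of −1.5 in 0 of 80 libraries and was therefore the only gene of the 9 that was not tested. Group means of Hk2 ran from 0.0278 RPKM in X1 to 0.134 RPKM in X1W. When all 27333 genes with a read were tested, Hk2 was called in none of the 32 comparisons, with its lowest adjusted p, 0.0981, in X1 against C0.

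**Figure D1:**
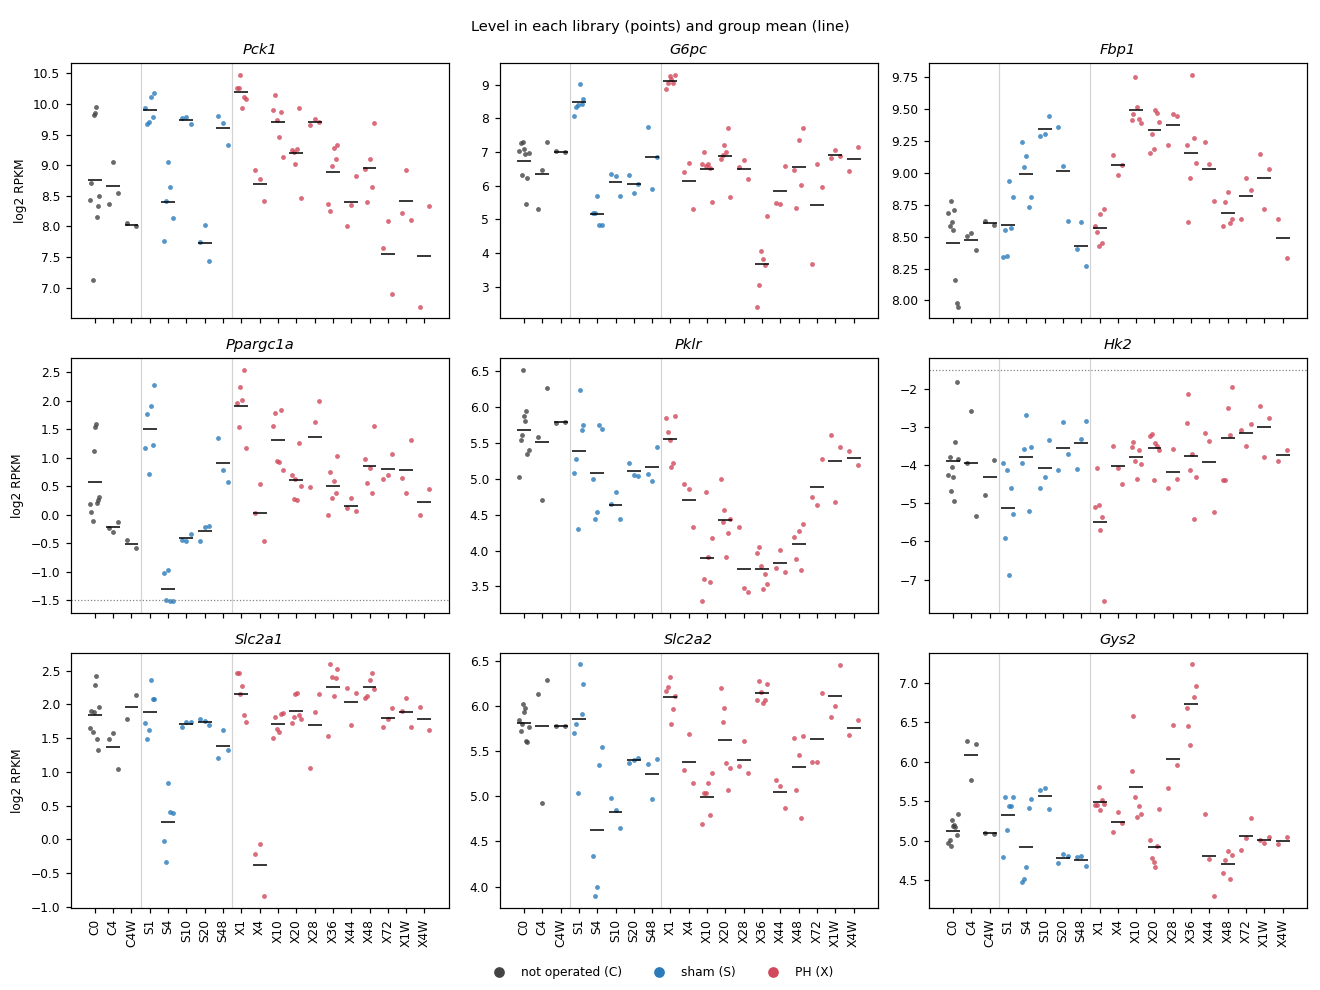
Level of each of the 9 genes (log2 RPKM, vertical axis, scaled per panel) in every library, with groups on the horizontal axis, points for libraries and black lines for group means. Dotted lines mark the detection level of −1.5. G6pc in X36 (2.41 to 5.10) sat below all C0 livers (5.47 to 7.29), and Hk2 lay under the detection level in all 80 libraries.

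In the direct comparisons of PH with sham surgery at the same hour, few of the 8 tested genes were called. X1 and S1 differed in 0 of 8, where 0.650% of all genes were called. X4 and S4 differed in 2 (Ppargc1a and Slc2a2, both higher after PH; 8.64% of all genes), X10 and S10 in 1 (Ppargc1a, higher; 7.02%), X20 and S20 in 1 (Pck1, higher; 7.11%), and X48 and S48 in 2 (Slc2a1 higher and Pklr lower; 27.2%). G6pc, Fbp1 and Gys2 were called at no hour, and their 95% confidence intervals of the difference still reached 1.91 (G6pc, X4 against S4), 0.64 (Fbp1, X20 against S20) and 0.73 (Gys2, X4 against S4) on the log2 scale. Between X48 and S48 the median of all genes was itself 0.27 higher after PH, with 3773 genes called higher and 414 lower. When the libraries were scaled to the same median, Slc2a1 was no longer called there (0.35), and Pck1 (−1.15) and Gys2 (−0.54) were called lower.

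**Figure D2:**
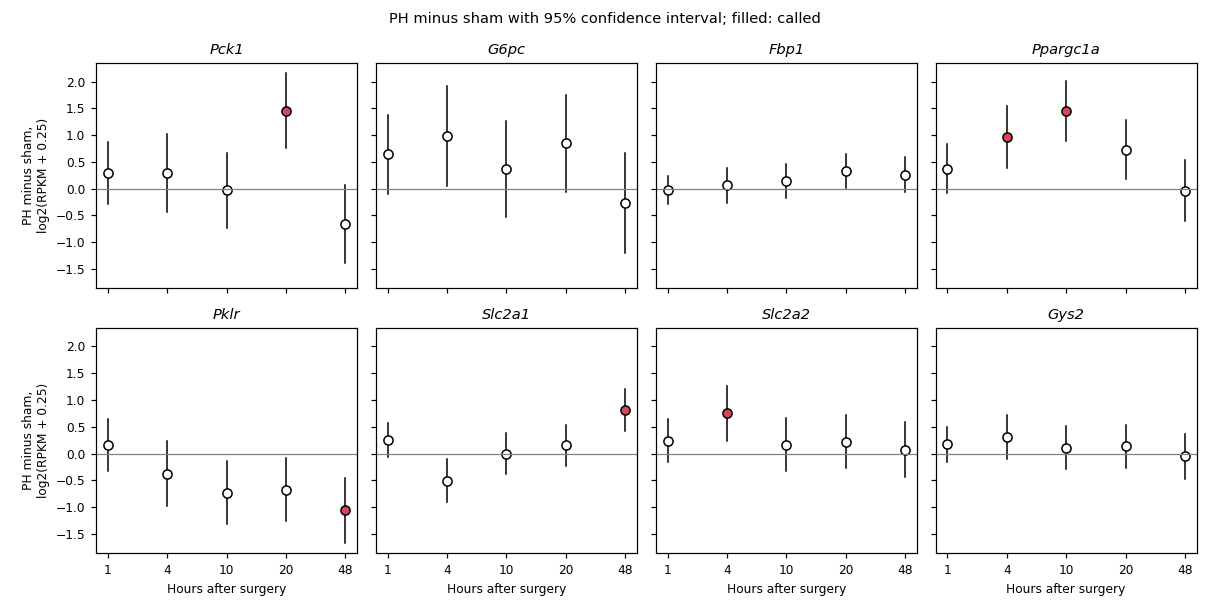
Difference between PH and sham livers on the log2(RPKM + 0.25) scale (vertical axis) at the 5 hours with both kinds of surgery, from 1 to 48 h (horizontal axis, evenly spaced), with 95% confidence intervals, for the 8 tested genes. Filled points were called: Ppargc1a at 4 and 10 h, Slc2a2 at 4 h, Pck1 at 20 h, and Pklr and Slc2a1 at 48 h.

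Against the C0 livers, which all the following counts share as the control, more of the genes were called. After PH, 3 of 8 genes were called at 1 h (13.5% of all genes), 3 at 4 h (38.2%), 6 at 10 h (36.4%), 2 at 20 h (24.1%), 5 at 28 h (24.9%), 4 at 36 h (35.0%), 3 at 44 h (39.2%), 1 at 48 h (38.1%), 3 at 72 h (33.2%), 1 at 1 week (16.9%) and 1 at 4 weeks (5.62%). After sham surgery the counts were 3 of 8 at 1 h (7.77%), 6 at 4 h (34.4%), 5 at 10 h (29.1%), 3 at 20 h (12.1%) and 0 at 48 h (8.88%). In all, 32 of 88 pairs of gene and PH group and 17 of 40 pairs of gene and sham group were called. Over all genes, the share called ran from 5.62% to 39.2% in the PH groups and from 7.77% to 34.4% in the sham groups. A share pooled over groups was not computed for all genes, so the 2 totals cannot be set against one. The C0 livers were themselves uneven: numbered by replicate, Pck1 was at 7.12 to 8.70 log2 RPKM in replicates 1 to 3, at 9.82 to 9.95 in replicates 4 to 6 and at 8.16 to 8.50 in replicates 7 to 9. Counting C4 against C0 as well, 50 results were called, and 23 of them were called with each C0 triplicate alone. Without C0 replicate 8, the liver with the most immune marker RNA, 48 of the 50 were kept. Those of Fbp1 in X1W (0.46) and S4 (0.49) fell short of the limit of 0.5, and Slc2a2 in X48 (−0.51) was called in addition.

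**Figure D3:**
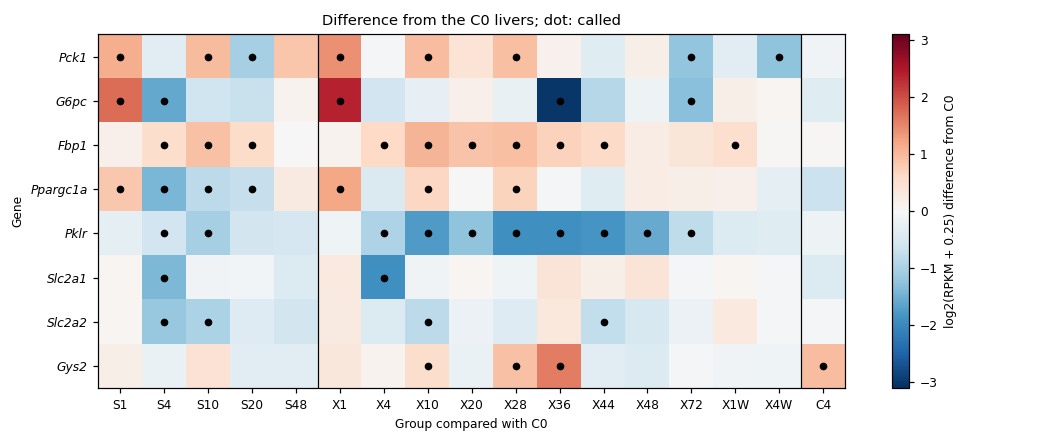
Difference of each group from the C0 livers on the log2(RPKM + 0.25) scale (colour) for the 8 tested genes, with sham groups on the left, PH groups in the middle and C4 at the right, and dots for genes called. The deepest decrease is that of G6pc in X36 (−3.02), and Pklr was called lower in 8 of 11 PH groups.

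Pck1 (ENSMUSG00000027513, mm9 chr2:172978549-172984774, plus strand) was the gene of the 8 called between PH and sham livers at 20 h. It was at 8.47, 9.23 and 9.94 log2 RPKM (lowest, median and highest) in the 6 X20 livers and at 7.74, 8.03 and 7.44 in the S20 livers. All X20 livers were above all S20 livers. The difference was 1.45 ± 0.350 (SE), or 2.74-fold higher after PH (adjusted p = 0.00321, limma), and it was called under every alternative setting tried except the threshold of 1e-07. S20 came from 1 period and X20 from 2, and the difference was 1.42 with X20 replicates 1 to 3 and 1.49 with replicates 4 to 6, both called. At 48 h the order was the opposite, with 8.94, 8.41, 9.10, 8.64 and 9.69 in X48 and 9.81, 9.70 and 9.34 in S48, where the groups overlapped and the difference of −0.66 was not called (adjusted p = 0.136, limma), although it was −1.15 and called when the libraries were scaled to the same median. The S20 and S48 livers came from different periods. The change of the PH minus sham difference from 20 to 48 h was −2.11 ± 0.504 (SE, adjusted p = 0.00162, limma) and was called, as was the case for 13.2% of all genes. It was the only one of the 32 tests of this kind over the 8 genes that was called, the share of all genes being 4.68% from 1 to 4 h, 3.73% from 4 to 10 h and 0.104% from 10 to 20 h.

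The S20 livers were also low against C0 (−1.03), whereas X20 was not called against C0. Both results depended on the C0 livers used. With C0 replicates 1 to 3 or 7 to 9 alone, X20 was called higher (1.11 and 0.86) and S20 was not called (−0.35 and −0.59). Against C0 replicates 4 to 6 alone, X20 was called lower (−0.68). The call of S20 was also lost without S20 replicate 1 or 3 and with the compared groups fitted alone. At 1 h Pck1 rose in both arms, by 1.43 in X1 and 1.13 in S1. X1 livers were at 9.93, 10.19 and 10.48 and S1 livers at 9.68, 9.86 and 10.18 (lowest, median, highest), so that the arms overlapped. At 10 h the values of both arms were again high, at 9.14 to 10.14 in X10 and 9.68 to 9.78 in S10. All 8 calls of Pck1 against C0 were lost with at least 1 of the C0 triplicates: against C0 replicates 4 to 6 alone, those of X10, X28 and S10 turned to −0.17, −0.17 and −0.14, and X1 and S1 to 0.31 and 0.02, none of them called. X72 livers (7.64, 8.09 and 6.90) all lay below the X48 livers collected at the same ZT2, by 1.41 on the log2 scale (adjusted p = 0.00604, limma). This was the only gene of the 8 called between X72 and X48, where 5.96% of all genes were called. Without X72 replicate 3 the difference was −1.09 and was no longer called.

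G6pc (ENSMUSG00000078650, mm9 chr11:101228875-101239217, plus strand) spanned the widest range of the 9 genes, from a mean of 9.12 log2 RPKM in X1 to 3.68 in X36. X1 livers were at 8.87, 9.12 and 9.30 and S1 livers at 8.07, 8.42 and 9.03 (lowest, median, highest), against 5.47, 6.98 and 7.29 in C0. Both operated groups were above all C0 livers and overlapped each other. The rise was 5.21-fold in X1 (adjusted p = 6.34e-08, limma) and 3.34-fold in S1 (adjusted p = 9.04e-05, limma), and X1 exceeded S1 by 0.64 ± 0.369 (SE), which was not called.

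At 4 h G6pc was called against C0 after sham surgery and not after PH, while the arms were not called different from each other. S4 livers were at 5.19, 5.18, 5.71, 4.84 and 4.83, which was lower than C0 by 1.58 on the log2 scale and lower than C4 by 1.20, both called. X4 livers were at 6.41, 6.69 and 5.31, and X4 was called neither against C0 nor against S4 (0.98 ± 0.467 SE, adjusted p = 0.164, limma). At 36 h G6pc reached its lowest level, at 2.41, 3.06, 4.05, 3.83, 3.65 and 5.10 in the X36 livers. No X36 liver overlapped with C0, and the level was 8.13-fold lower (−3.02 ± 0.337 SE, adjusted p = 5.89e-12, limma). X36 was the only group collected at ZT14, 2 h after food was given, so PH and time of day cannot be told apart in this value. The same holds for the X36 values of the other genes. By X44 the livers were at 5.49, 5.47 and 6.59 and by X48 at 5.32 to 7.70. X72 was called lower than C0 (−1.30), which rested on replicate 1, at 3.68 beside 6.63 and 5.96, and the difference without it was −0.44 and not called.

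Fbp1 (ENSMUSG00000069805, mm9 chr13:62966113-62989642, minus strand) moved within 1.07 on the log2 scale over all groups, the narrowest range of the 9 genes. It was highest at 10 h, with 9.40, 9.44 and 9.75 (lowest, median, highest) in X10 and 9.29, 9.30 and 9.45 in S10, against 7.95, 8.58 and 8.78 in C0. Both arms lay above all C0 livers and overlapped each other. The rise was 2.07-fold in X10 (1.05 ± 0.118 SE, adjusted p = 8.97e-12, limma) and 1.86-fold in S10. Fbp1 was called higher than C0 in 7 PH groups (X4, X10, X20, X28, X36, X44 and X1W) and in S4, S10 and S20. With each C0 triplicate alone, the calls of X10, X20, X28 and S10 held, and the other 6 did not. In X44 the rise of 0.58 was 0.06 when libraries were scaled to the same median. Against C4 at the same ZT6, Fbp1 was higher in X4 (0.59) and in S4 (0.52), with no overlap between the groups in either case.

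Ppargc1a (ENSMUSG00000029167, mm9 chr5:51845488-51958964, minus strand) was called between PH and sham livers at 2 of the 5 hours, more than any other of the 8 genes. At 4 h it was at 0.03, 0.55 and −0.47 log2 RPKM in X4 and at −1.02, −1.49, −0.98, −1.52 and −1.52 in S4, with no overlap. The difference was 0.97 ± 0.288 (SE, adjusted p = 0.0141, limma), and it was no longer called without X4 replicate 5 (0.76), with 1 added in place of 0.25 (0.54) or against S4 replicates 4 and 5 alone (1.10, adjusted p = 0.0534, limma). S4 lay also below C4 (−0.23, −0.30 and −0.12) and below C0, by 0.76 and 1.42, both called. At 10 h the 6 X10 livers were at 0.78, 1.25 and 1.85 (lowest, median, highest) and the S10 livers at −0.44, −0.46 and −0.34. Every X10 liver was above every S10 liver, by a mean of 1.45 ± 0.278 (SE), or 2.73-fold on this scale (adjusted p = 0.000192, limma). This call was lost under the threshold of 1e-07 alone. S10 came from 1 period and X10 from 2, and the difference was 1.56 with X10 replicates 1 to 3 and 1.34 with replicates 4 to 6, both called.

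At 20 h Ppargc1a was at 0.26, 0.57 and 1.25 in X20 and at −0.45, −0.21 and −0.19 in S20, again without overlap, but the difference of 0.73 was not called (adjusted p = 0.0704, limma). At 48 h the arms overlapped, at 0.38 to 1.56 in X48 and 0.57 to 1.35 in S48. Both arms had been high at 1 h, at 1.17 to 2.55 in X1 and 0.72 to 2.27 in S1, above C0 by 1.20 and 0.83. C0 replicates 4 to 6 were at 1.11 to 1.60 and the other 6 C0 livers at −0.11 to 0.31, and of the 7 calls of Ppargc1a against C0 only that of S4 held with each C0 triplicate. The level of Ppargc1a is low, at a median of 245 estimated reads per library, and a change is understated by the added 0.25.

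Pklr (ENSMUSG00000041237, mm9 chr3:88940064-88950706, plus strand) fell after PH and was called lower than C0 in every PH group from X4 to X72. From 5.02, 5.61 and 6.52 log2 RPKM (lowest, median, highest) in C0 it went to 3.29, 3.76 and 4.81 in X10, 3.91, 4.42 and 4.99 in X20, 4.33, 3.47 and 3.42 in X28, and 3.46, 3.73 and 4.06 in X36. X44 livers were at 3.76, 4.01 and 3.71 and X48 livers at 4.18, 3.88, 4.28, 3.73 and 4.37. All livers of these 6 groups were below all C0 livers. The decrease was 3.39-fold in X10 (adjusted p = 2.07e-10, limma), 3.75-fold in X28 (adjusted p = 6.3e-08, limma) and 2.97-fold in X48 (adjusted p = 2.51e-08, limma), and it was called with each C0 triplicate alone in these 6 groups. In X72 (4.74, 4.64 and 5.28) Pklr was lower than C0 by 0.78, a call lost without replicate 1 or without replicate 2, and X1W and X4W were not called.

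At 4 h the decrease against C0 was 0.96 on the log2 scale in X4 and 0.59 in S4, both called with all C0 livers. With C0 replicates 1 to 3 alone, neither was called (−0.68 in X4 and −0.30 in S4). The call of S4 was also lost with C0 replicates 7 to 9 alone (−0.47), without C0 replicate 4, without any one of S4 replicates 1, 2 and 3 (−0.42 to −0.56), with the same median (−0.45) and with the compared groups fitted alone. Sham livers also had less Pklr at 10 h, at 4.65, 4.81 and 4.44 in S10, a decrease of 2.04-fold against C0 that was called, although not with C0 replicates 1 to 3 alone (−0.75, adjusted p = 0.0731, limma). X10 was lower than S10 by 0.73 ± 0.294 (SE), but the groups overlapped through X10 replicate 3 (4.81) and the difference was not called (adjusted p = 0.0952, limma), whereas without that liver it was −0.91 and called. At 20 h X20 was below S20 (5.21, 5.05 and 5.04) without overlap, by 0.67, which was not called either. At 48 h S48 livers were at 5.06, 4.97 and 5.44, all above the 5 X48 livers. This difference of −1.06 ± 0.304 (SE), 2.08-fold lower after PH, was called (adjusted p = 0.00334, limma), and was −1.55 and called when the libraries were scaled to the same median. Between groups of the same ZT, Pklr was lower in X28 than in X4 (−0.95, called, but lost without X28 replicate 2 or 3 or X4 replicate 4 or 5) and not called between X44 and X20.

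Slc2a1 (ENSMUSG00000028645, mm9 chr4:118781316-118809935, plus strand) was called against C0 in the 4-h groups, X4 and S4, and in no other group. It was at −0.22, −0.07 and −0.84 log2 RPKM in X4 and at −0.02, −0.34, 0.83, 0.40 and 0.39 in S4, against 1.48, 1.57 and 1.05 in C4 and 1.32, 1.89 and 2.42 (lowest, median, highest) in C0. Both 4-h groups were below all C4 and all C0 livers, by 1.47 (X4) and 0.97 (S4) against C4. The fall against C0 was 3.74-fold in X4 (adjusted p = 7.87e-14, limma) and 2.64-fold in S4 (adjusted p = 5.09e-12, limma). X4 was lower than S4 by 0.50 ± 0.200 (SE), which was not called (adjusted p = 0.0825, limma). Without S4 replicate 2 it was −0.62 and called. By 10 h the S10 livers were at 1.66 to 1.74 and the highest X10 liver at 1.87, while the mean of X10 was below that of S10. At 48 h all X48 livers (2.09, 2.12, 2.37, 2.46 and 2.23) were above the S48 livers (1.21, 1.62 and 1.32), by 0.81 ± 0.200 (SE, 1.76-fold, adjusted p = 0.00067, limma). Scaled to the same median of all genes, this difference was 0.35, and scaled to the same upper quartile 0.45, and it was called in neither case. Between X48 and S48, where 27.2% of all genes were called, 0 of 5 endothelial markers were called. Stellate and matrix markers were called in 3 of 5 (higher) and erythroid markers in 1 of 3 (lower). The part of these markers' cells in the Slc2a1 difference was not tested.

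Slc2a2 (ENSMUSG00000027690, mm9 chr3:28596825-28627278, plus strand), the main glucose carrier of hepatocytes, was lower than C0 at 4 h after sham surgery and at 10 h after either operation. S10 livers were at 4.98, 4.85 and 4.65 and X10 livers at 4.69, 5.04 and 5.26 (lowest, median, highest), all below the C0 livers at 5.61, 5.81 and 6.02. The decrease was 1.97-fold in S10 (adjusted p = 0.000386, limma) and 1.76-fold in X10 (adjusted p = 0.00011, limma). At 4 h the S4 livers were at 4.34, 3.89 and 4.00 in replicates 1 to 3 and at 5.34 and 5.54 in replicates 4 and 5, and the X4 livers at 5.29, 5.69 and 5.15. S4 was 2.26-fold lower than C0 (adjusted p = 4.29e-07, limma). The difference between X4 and S4 of 0.75 was called (adjusted p = 0.0368, limma), but the groups overlapped, and against S4 replicates 4 and 5 alone it was −0.065. The call was also lost on leaving out any one of S4 replicates 1, 2 and 3 or any one X4 liver. Slc2a2 was lower again in X44 (5.18, 5.11 and 4.87), by 0.75 against C0, after the X36 livers had stood at 6.04 to 6.27. The call in X44 was lost with C0 replicates 7 to 9 alone (−0.61, adjusted p = 0.0749, limma). X36 was collected at ZT14 and X44 at ZT22.

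Gys2 (ENSMUSG00000030244, mm9 chr6:142371133-142421629, minus strand) was highest in X36, at 6.68, 6.45, 6.22, 7.23, 6.82 and 6.96 log2 RPKM against 4.93, 5.18 and 5.34 (lowest, median, highest) in C0. No X36 liver overlapped with C0, and the rise was 3.01-fold (1.59 ± 0.149 SE, adjusted p = 1.13e-14, limma). With X36 the only group at ZT14, PH and time of day cannot be told apart in this rise. X28 livers (5.67, 6.46 and 5.96) were also above all C0 livers, by 0.90. Mice that were not operated on had a high level at the same ZT6, at 6.26, 5.77 and 6.22 in C4, which was 0.95 above C0 and the only one of the 8 genes called in that comparison (7.89% of all genes). At 4 h after surgery, X4 (5.11, 5.36 and 5.23) and S4 (4.48, 4.51, 4.67, 5.42 and 5.53) were below all C4 livers, by 0.84 and 1.16, both called. X28, collected at ZT6 on the next day, was 0.79 above X4 (called, but 0.58 and lost without X28 replicate 2, and 0.56 and lost when scaled to the same median). Gys2 was called in X10 by 0.55, which rested on replicate 2 at 6.57 and was 0.37 without it, and 0.33 when scaled to the same median, called in neither case.

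Some comparisons at matched time of day complete this account. Against C4, 4 of 8 genes were called in X4 (45.6% of all genes) and 6 in S4 (43.3%), and the 2 comparisons share the C4 livers. C4 shared no period with X4 or S4, so period and operation cannot be told apart here. Fbp1 was higher in both. Slc2a1 and Gys2 were lower in both, and Pklr in X4 (−0.80), while G6pc, Ppargc1a and Slc2a2 were lower in S4, Slc2a2 by 1.15. The calls of Pklr in X4 and of G6pc and Ppargc1a in S4 were lost without C4 replicate 3, with differences of −0.43, −0.73 and −0.72, that of G6pc also without C4 replicate 2 and that of Pklr also without C4 replicate 1 or X4 replicate 6. The call of Fbp1 in S4 was lost without C4 replicate 3 or S4 replicate 1 or 3. Against C4, the median difference of all genes was −0.26 in X4 and −0.22 in S4. Scaled to the same median, Pklr in X4 (−0.52) and G6pc (−0.97) and Ppargc1a (−0.61) in S4 were not called. That of Slc2a2 in S4 was lost when the compared groups were fitted alone (adjusted p = 0.0895, limma). X28 differed from X4 in 5 of 8 genes (28.3% of all genes), among which Slc2a1 (1.78) and Ppargc1a (1.15) were higher. The call of Ppargc1a was lost when the compared groups were fitted alone (adjusted p = 0.0845, limma). X28 came from the first period, and the period of the analysed X4 livers is not known, so period and hour may be mixed here. Pck1 was higher by 1.00, a call lost on leaving out any one of the 6 livers. X44 differed from X20 in 0 of 8 (16.1% of all genes). Scaled to the same median, however, 5 genes were called lower in X44, namely Pck1 (−1.08), G6pc (−1.32), Fbp1 (−0.59), Pklr (−0.87) and Slc2a2 (−0.85). The median of all genes was 0.10 higher in X44 than in X20 before this scaling, and it was higher than in C0 by 0.23 in X44, 0.24 in X48 and 0.21 in X72. At 4 weeks X4W and C4W differed in 0 of 8 genes (0.0650% of all genes). With 2 livers in each group the intervals were wide, reaching 0.48 at the upper end for Pck1 beside a difference of −0.51. X4W replicates were at 6.69 and 8.33 for Pck1, and the call of Pck1 against C0 (−1.25) was lost without replicate 1 (−0.43).

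When the groups were ordered by their mean, neighbouring groups overlapped in nearly every step. Of 18 steps per gene, the libraries of neighbouring groups were separate in 1 for G6pc (S1 above C4W), 1 for Ppargc1a (C4W above S4), 1 for Slc2a1 (C4 above S4) and 0 for each of the other 6 genes. The same count was not made over all genes, so these numbers cannot be called particular to this set. C4W holds only 2 livers, which were very alike, so a separation from it is reached more easily. Over the 19 group means, Pearson's r between genes of the set ran from −0.74 (Fbp1 with Pklr) to 0.59 (Pck1 with Ppargc1a), with 0.55 for G6pc with Ppargc1a. These are descriptions over groups that share times of day. Among 10509 protein-coding genes with a group mean above 0 log2 RPKM in at least 1 group, the means most like those of Pck1 were Cln8 (r = 0.865), Angptl4 (0.826) and Slc25a47 (0.810), and those most like G6pc were Arl4a (0.837), Zfp839 (0.822) and Trp53inp1 (0.815). Fbp1 was most like Pdzrn3 (0.921), Cntnap1 (0.902) and Tmem120a (0.902), Ppargc1a like Lpin2 (0.816), Tuft1 (0.805) and Slc7a2 (0.801), and Pklr like Gm4956 (0.952), Haao (0.935) and Bphl (0.933). Slc2a1 was most like Baiap2 (0.923), Kcnk5 (0.922) and Arhgef19 (0.913), Slc2a2 like Bbox1 (0.878), Aspa (0.838) and Cyp3a25 (0.815), and Gys2 like Hnrnpd (0.783), Dbp (0.770) and Acaa2 (0.764). For Hk2, near the floor of the table, they were Zfp229 (0.840), Zfp942 (0.839) and Cdk13 (0.804).

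The rest of the pathway was read through 7 gene lists, beside the share of all genes called between PH and sham livers, which was 0.650% at 1 h, 8.64% at 4 h, 7.02% at 10 h, 7.11% at 20 h and 27.2% at 48 h. Among 15 gluconeogenesis genes, PH livers had 0 calls against sham at 1 and 4 h, 1 higher at 10 h, 4 higher at 20 h, and 2 higher and 3 lower at 48 h, and the 5 of 15 called at 48 h were near the share of all genes (27.2%). At 10 h the call was Gpt2, an alanine aminotransferase (1.03). At 20 h they were Pck1, Sdsl (1.32) and Got1 (1.00), which turn amino acids into gluconeogenic intermediates, and Mdh2 (0.53). At 48 h Pck2, the mitochondrial form of phosphoenolpyruvate carboxykinase (1.68), and Mdh2 (0.80) were higher and Tat, tyrosine aminotransferase (−1.01), Sds (−0.78) and Slc37a4 (−0.50) were lower. The median difference of the list at 20 h was 0.33, against 0.07 over all genes. Scaled to the same median, the list had 2 higher genes at 20 h, and 1 higher and 7 lower genes at 48 h.

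Among 23 tested glycolysis genes, 0 were called at 1 and 4 h, 3 were higher and 1 lower at 10 h, 2 higher and 1 lower at 20 h, and 7 higher and 2 lower at 48 h. Pklr was among the lower genes at 48 h. The higher ones at that hour were Pkm2, the gene of the other pyruvate kinase (0.93), Ldha (0.92), Pgam1, Tpi1, Aldoa, Gapdh and Eno1, the last 5 between 0.56 and 0.58. The median of the list at 48 h was 0.12 and that of all genes 0.27. Scaled to the same median, 0 of these genes were higher and 3 lower at 48 h, with Pkm2 at 0.46 and Ldha at 0.42, whereas the counts at 10 h were the same. Pfkfb2, which makes fructose-2,6-bisphosphate, was higher at 10 h (0.85) and 20 h (0.86).

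Among 17 glycogen genes, 0 were called at 1 h, 1 at 4 h, 1 at 10 h, 2 at 20 h and 7 at 48 h. The share called was below that of all genes at 4 h (8.64%) and 10 h (7.02%) and above it at 48 h (27.2%). Phkg2 (−0.60 at 4 h) and Phka2 (−0.53 at 10 h), subunits of phosphorylase kinase, were lower, and Pgm1 (0.67) and Gyg (0.55) were higher at 20 h. At 48 h Pygb (1.35) and Pgm1 (1.01) were among 4 higher genes and Ppp1r3b, a glycogen-targeting subunit of protein phosphatase (−1.18), among 3 lower ones. The gene listed as Pgm2 was not called at 48 h (−0.11), and was called lower there when scaled to the same median (−0.60). Of 8 tested genes of hexose transport and fructose entry, 2 were higher at 4 h (Slc2a2 and Slc2a9, 0.58), 2 lower at 10 h (Slc2a5, −0.94, and Slc2a8), 2 lower at 20 h (Slc2a8, −0.56, and Khk, ketohexokinase), and Slc2a1 higher and Khk (−0.83) lower at 48 h. Of 12 genes of pyruvate and lactate handling, 3 were higher at 4 h, with Pdk4, a pyruvate dehydrogenase kinase, at 3.56. Slc16a1, which carries lactate and pyruvate (MCT1), was called higher at 4, 10, 20 and 48 h, by 0.94, 0.73, 1.04 and 0.93. At 48 h Slc16a7 (0.88) was among 4 higher genes and Pdk1 (−0.99) the lower one, and of 7 pentose phosphate genes G6pdx (−1.16) was called, at 48 h alone. Scaled to the same median, the counts at 48 h were 2 higher and 7 lower for glycogen, 0 and 2 for hexose transport and 1 and 3 for pyruvate and lactate, with Slc16a1 at 0.44 and not called.

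Of 32 regulators, 3 were higher at 1 h (Nr4a1, 1.97, Sik1, 1.46, and Cry2, 0.66), 6 higher and 4 lower at 4 h, 3 higher and 2 lower at 10 h, 2 higher and 2 lower at 20 h, and 3 lower at 48 h, where 3 of 32 was below the 27.2% of all genes. Sik1, a kinase that restrains cAMP signalling, was higher at 4 h (1.38), 10 h (0.98) and 20 h (0.92) as well. Nr1d1 (−1.75) and Trib3 (−1.55) were lower and Txnip (1.45) higher at 4 h. Mlxipl encodes ChREBP, which binds carbohydrate response elements, and was lower at 10 h (−1.30) and 20 h (−0.90). At 48 h it was not called (−0.53) except when libraries were scaled to the same median (−1.01) or upper quartile (−0.91). Igfbp1 was higher at 20 h (2.64). Cebpa, a transcription factor of mature hepatocytes, was lower at 4 h (−1.18), 10 h (−0.96), 20 h (−0.97) and 48 h (−0.86), and Foxo3 at 48 h (−0.65). The median difference of this list was at most 0.14 at any hour. Scaled to the same median, 12 regulators were lower at 48 h.

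**Figure D4:**
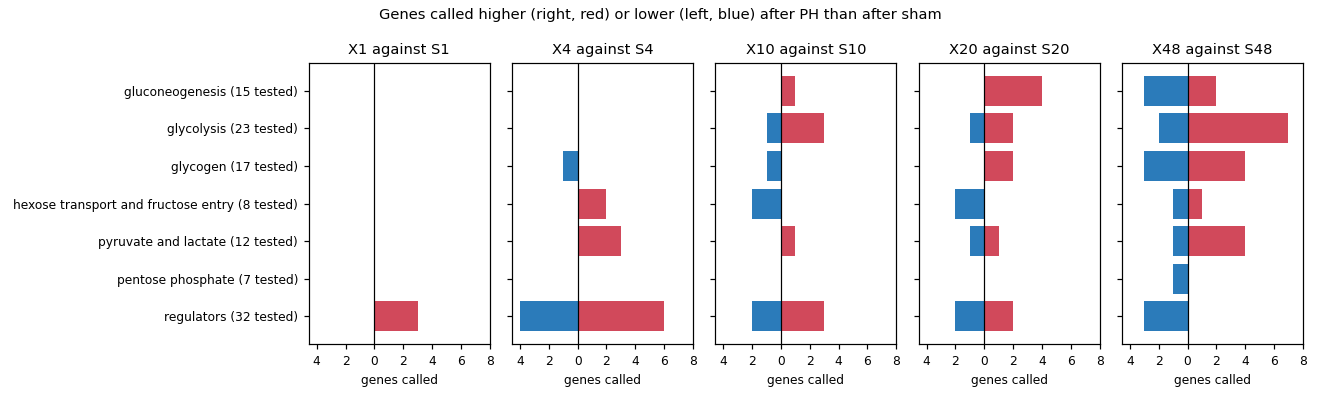
Number of genes called higher (right, red) or lower (left, blue) after PH than after sham at each of the 5 shared hours, by gene list (vertical axis, with the number tested). Gluconeogenesis had 4 higher and 0 lower genes at 20 h, and glycolysis 7 higher and 2 lower genes at 48 h, of which 0 higher ones were left when libraries were scaled to the same median.

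Some marker genes were called between PH and sham livers. Of all genes, 8.64% were called at 4 h, 7.02% at 10 h, 7.11% at 20 h and 27.2% at 48 h. At 48 h, 3773 of all genes were called higher and 414 lower. Markers were not counted again with libraries scaled to the same median. Between X48 and S48, 3 of 8 hepatocyte markers were lower (Cyp2e1, Ttr and Ass1) and 3 of 5 stellate and matrix markers were higher, and the summed hepatocyte level was 35069 to 41129 RPKM in X48 and 41803 to 51281 RPKM in S48. Between X20 and S20, 1 of 8 hepatocyte markers was higher and 2 of 5 stellate and matrix markers were higher, with summed hepatocyte levels of 27537 to 36441 RPKM and 37616 to 40832 RPKM. Between X10 and S10, 1 hepatocyte marker was higher and 1 lower, and 1 of 5 stellate and matrix markers was higher. The 5 adipocyte markers, of which Fabp4 alone was abundant enough to be tested, summed to 15.3 to 56.0 RPKM in X10 and 8.12 to 10.99 RPKM in S10, and to 12.8 to 40.3 RPKM in X48 and 6.85 to 10.83 RPKM in S48. In both comparisons the groups did not overlap and Fabp4 was called higher after PH. The 5 cholangiocyte markers summed to 31.7 to 44.4 RPKM in X48 and 19.6 to 29.5 RPKM in S48, again without overlap, and 1 of them, Spp1, was called higher. Of 3 erythroid markers, 1 was lower in X20 and in X48 than in sham. Macrophage, neutrophil and endothelial markers were called in 0 of 5 each in the comparisons of X4, X10, X20 and X48 with sham. The part of these marker differences in the differences of Pklr, Pck1 and Ppargc1a was not tested.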

How the data were processed

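Libraries were 100-nucleotide single-end reads of poly(A) RNA made with a stranded kit. The authors trimmed reads with Cutadapt and prinseq-lite, mapped them with TopHat 2.0.13 and Bowtie2 to mm9 (SAMtools 0.1.19), counted them per strand with featureCounts on Ensembl genes, giving a read with several positions a fraction at each, and deposited log2 RPKM, where genes without reads are listed at −14.29. Of 84 columns, 80 carried the name of exactly 1 labelled sample, 4 matched none and were not used, and 7 labelled samples (3 X4, 3 X60 and 1 X4W) were not analysed here. The study's supplement gives the period of each group but not of each replicate, so no period term was fitted.

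From the deposited log2 values, a gene entered the tests where its highest value exceeded −1.5 (15396 of 37991). Group means of log2(RPKM + 0.25) were compared with limma 3.58.1 (R 4.3.3, prior variance following the mean level) in one model of 19 groups, and p values were adjusted within each comparison. Each library is divided by its own total, so a change in abundant transcripts shifts the others. The tests were checked on simulated data. Positions and exon lengths come from GENCODE vM1 (mm9), promoters from RefSeq (GRCm38.p6). The deposited table names Pkm, Mpc1 and Mpc2 by the older symbols Pkm2, Brp44l and Brp44. Other symbols, Pgm1 and Pgm2 among them, were matched as written, and whether each names the same gene today was not checked. Depth was estimated, and the numbers of reads given are estimates. The 9 genes, the gene lists and the marker lists were chosen with earlier results of these data known. Besides the 9 genes, the text names, for each list and each comparison of PH with sham, up to 3 called genes with the largest difference among those without overlap and with a group mean above 0 and the 3 genes most alike to each of the 9, except that some items are not reported here. Other names within the counts, such as Sds, Ldha at 48 h, Khk at 20 h, Nr4a1, Cebpa at 4 and 10 h, Sik1 at 4 h, Mlxipl at 20 and 48 h and the marker genes, were added after their values were seen. Alternatives were the added constant, the filter, 2 scalings, the groups compared fitted alone, other prior variances, the replicate number as a block, subsets of C0 and of replicates, and leaving out each library. The scalings of the pathway lists were added after seeing the data. Figures were drawn with matplotlib 3.10.9.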

Additional observations from a re-analysis of the deposited data

Results flagged for a closer look

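Across 72 combinations of a gene and a group of 4 to 10 livers, 4 single livers stood apart from their group by Dixon's test, where chance alone marks about 1 combination in 20. G6pc was at 5.505 log2 RPKM in X10 replicate 6, below the other 5 X10 livers. Fbp1 was at 9.75 in X10 replicate 3, above the others. Hk2 was at −1.83 in C0 replicate 8 and at −4.38 in X20 replicate 3, both below the detection level, and C0 replicate 8 also held the most neutrophil and macrophage marker RNA of all libraries (45.9 and 79.8 RPKM).

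The PH minus sham difference of Pck1 changed from 20 to 48 h by −2.11 on the log2(RPKM + 0.25) scale (adjusted p = 0.00162, limma), the only one of 32 such tests over the 8 genes that passed. It combined X20 above S20 by 1.45 with X48 below S48 by 0.66.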

How the results depend on the processing

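Of the 73 calls of a gene in a comparison, 59 were kept when libraries were scaled to the same median, 64 at the same upper quartile, 51 when the compared groups were fitted alone and 15 at an adjusted p below 1e-07. All 73 were kept with a constant or a robust prior variance and with genes above 0 log2 RPKM in 3 libraries. Over all alternatives of this kind, 910 of 1082 values of these 73 calls kept direction and call. Of the rest, 166 kept the direction only and 6 reversed. Leaving out 1 library kept 784 of 844 and reversed none. The cause was not tested for any of them.

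With C0 replicates 4 to 6 as the only controls, calls of Pck1 reversed in X10 (−0.17), X28 (−0.17) and S10 (−0.14). Calls of Ppargc1a reversed in X10 (−0.094) and X28 (−0.030), and none of these reversed values was called. Other values had not been called with all C0 livers, and reversed to be called lower. They were Pck1 in X20 (−0.68), X36 (−0.99) and X48 (−0.92), and Ppargc1a in X20 (−0.72). Slc2a2 reversed between X4 and S4 (−0.065) with replicates 4 to 6 only.

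Counts of genes called also moved. X4 against S4 had 1 with 1 as the added constant, without the filter or with the groups alone, and 0 with replicates 4 to 6. The tests of successive hours had 2 with 0.05 as the constant, with the same median, with the groups alone or with the replicate block. With the same median or upper quartile, the counts were 3 for C4 against C0, 3 for X28 against X4, 5 for X44 against X20 and 2 for X72 against X48. With the groups alone, they were 2 for X20 against S20, 10 for sham against C0, 3 for X28 against X4 and 0 for X72 against X48. Below 1e-07 they were 11 for PH against C0, 2 for sham against C0, 1 for X4 against C4, 1 for X28 against X4 and 0 for X4, X10, X20 and X48 against sham, C4 against C0, S4 against C4, X72 against X48 and the successive hours. C4 against C0 had 4 with C0 replicates 4 to 6 and 3 with 1 to 6, and X1 against S1 had 1 with replicates 1 to 3.

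Leaving out 1 library gave 30 to 33 calls for PH against C0, 14 to 17 for sham against C0, 0 to 2 for X4 against S4, 1 to 2 for X10 against S10, 1 to 2 for the successive hours, 3 to 5 for X4 against C4, 3 to 6 for S4 against C4, 2 to 4 for X28 against X4, 0 to 2 for X44 against X20 and 0 to 2 for X72 against X48. The other counts did not move.

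The labels do not say that a replicate number marks a shared batch, and of 17 pairs of PH and sham livers with the same number, 3 had deviations correlated over 0.1 (r from −0.19 to 0.27) and 6 matched best with their own number. With the replicate block, 63 of 73 calls were kept and 6 were gained. Low levels limit Hk2, with a median of 10.98 estimated reads per library.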
